A study of Homo sapiens with 6 samples.

Results

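The signal transducers and activators of transcription (STATs) were described in HT1080 cells, an established human fibrosarcoma line, with and without interferon beta (IFNβ). The genes were chosen by name, through the gene identifiers of the deposited table, and not by their values. They were STAT2, STAT3, STAT4, STAT5A, STAT5B and STAT6, 6 of the 62710 genes in the table. Of these, 5 were among the 20716 genes with a mean level high enough to be tested, and STAT4 was below that limit. RNA was sequenced in 3 libraries of untreated cells and 3 libraries of cells given IFNβ at 20 ng/mL over 24 h, and the labels give no other agent and no genetic change for either group. The labels and the cell culture methods of the study name human IFNβ for these cells, whereas its RNA sequencing methods name the mouse protein. Levels are FPKM, the number of sequenced fragments scaled by gene length and by library size, so that levels of different genes can be set side by side per length. The statistical methods of the study speak of independent biological replicates for its work in vitro in general. The labels do not say whether the 3 libraries of a group came from separate cultures, and p-values measure the spread between these libraries.

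STATs are latent transcription factors that wait in the cytoplasm. When a cytokine binds its receptor, Janus kinases attached to the receptor chains phosphorylate STATs, which pair up, enter the nucleus and bind DNA. In the response to type I interferon, STAT2 works in the complex ISGF3 with the DNA-binding partner IRF9 and binds interferon-stimulated response elements (ISRE). STAT3 serves the receptors of the interleukin-6 family, STAT4 that of interleukin-12, STAT5A and STAT5B those of growth hormone, prolactin and several interleukins, and STAT6 those of interleukin-4 and interleukin-13. STAT dimers bind palindromic gamma-activated sites (GAS).

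The libraries rested on 22848104 to 32915500 fragments each, numbers that were recovered from the FPKM themselves. Of 8 mesenchymal markers, 7 had a mean of at least 1 FPKM, with a summed level of 1153 to 1212 FPKM in untreated and 1172 to 1225 FPKM in IFNβ libraries, and FAP was near 0. The 6 blood cell markers summed to at most 0.200 FPKM, the 4 epithelial markers to at most 0.0684 FPKM and the 3 endothelial markers to at most 0.441 FPKM in any library.

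To show the DNA next to the genes, windows of 300 bases around annotated start sites (250 before to 50 after) were taken from RefSeq on GRCh38.p14 and searched on both strands for the ISRE core GAAANNGAAA and for GAS palindromes with 2, 3 or 4 bases between the arms, TTCNNGAA, TTCNNNGAA and TTCNNNNGAA. All 6 STAT genes and IRF9 matched the window table by symbol. The stretch from 250 to 49 bases before the STAT2 start site, chr12:56360156-56360357 on the minus strand, is printed because STAT2 was the member with the largest rise. Its window held none of the 4 motifs, and 67.8% of the bases of the stretch were G or C.
STAT2: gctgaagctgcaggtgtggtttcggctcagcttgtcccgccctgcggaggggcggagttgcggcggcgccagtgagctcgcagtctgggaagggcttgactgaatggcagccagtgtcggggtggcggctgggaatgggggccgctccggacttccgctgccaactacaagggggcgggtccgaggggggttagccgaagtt

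The windows of 3 other STAT genes and of IRF9 held a palindrome of the GAS kind, set in capitals within 30 bases on the strand of the gene. The STAT3 match began 131 bases before the start site (chr17:42388555-42388584, minus strand), those of the 2 STAT4 windows 50 bases (chr2:191151628-191151657, minus strand) and 153 bases (chr2:191151129-191151158, minus strand), that of STAT5A 229 bases (chr17:42287200-42287229, plus strand) and that of IRF9 63 bases (chr14:24161191-24161220, plus strand).
STAT3: cgagctggcctTTCATGAAttatgcatgac
STAT4 first window: caactctgtgaTTCTAGAAcaggctgatgt
STAT4 second window: cgtgttagcatTTCTAGAAtagagtgggtg
STAT5A: ttttttttttTTCCTCTGAAgttaaaagaa
IRF9: gaccacgtgatTTCTGGGAAaaggccctcc

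The STAT5B and STAT6 windows held none of the 4 motifs, and neither did the other 2 of the 3 STAT5A windows. The STAT6 window surrounds the start site at 57110289, which lies inside the gene span of 57095408 to 57132139 and not at its end. The STAT5B window, 42276342 to 42276641, likewise lies wholly inside its gene span, which ends at 42276707. The DNA at that end of the span was not searched for either gene. Among all 35116 windows, 3.57% held the ISRE core, 7.74% a palindrome with 2 bases between, 7.66% with 3 bases and 6.44% with 4 bases. The share that held any of these palindromes was not computed and cannot be lower than 7.74%. STAT4 and STAT5A were searched in more than 1 window. Each window held at most 1 match, so no motifs overlapped. A match is a string of letters and not a measured binding site.

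IFNβ was followed by a higher level of STAT2, STAT3 and STAT6, a slightly lower level of STAT5B, and no detectable difference in STAT5A. A gene was called changed at an adjusted p under 0.05 in limma over all 20716 tested genes. By that rule 4 of the 5 tested STAT genes changed, 3 higher and 1 lower, where 32.7% of all tested genes changed (15.2% higher and 17.5% lower). That share covers many genes of low level. In a fit of only the 11996 genes with a mean of at least 1 FPKM, 6451 changed, a larger share, with 4 STAT genes among them. STAT2 was also a differentially expressed gene (DEG), which needs in addition a log2 fold change of at least 1 in size, as were 4.22% of the tested genes (3.49% higher and 0.739% lower). The groups did not overlap for any of the 5 tested STAT genes, as was so for 46.6% of all tested genes. In bulk RNA a larger number of responding cells and more RNA per cell cannot be told apart.

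**Figure D1:**
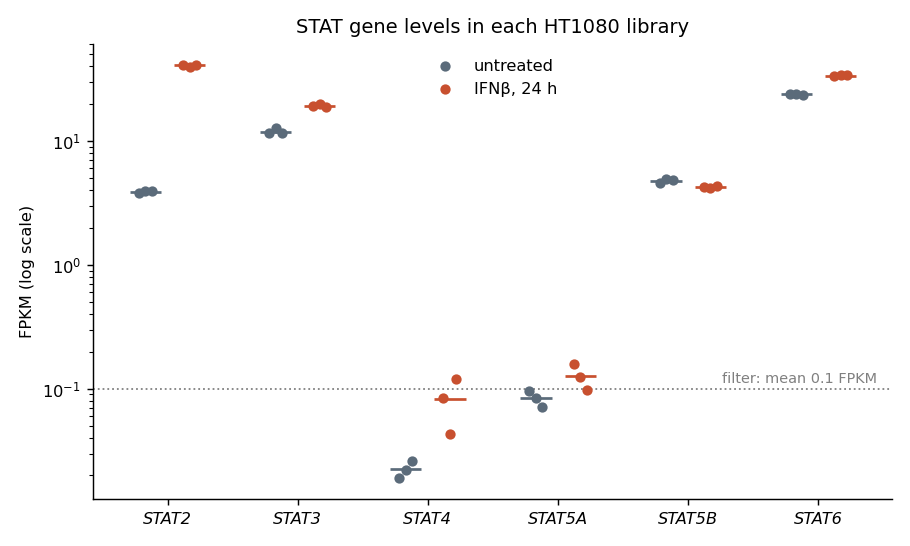
FPKM of the 6 STAT genes on a log axis, with a point for each of the 3 untreated and 3 IFNβ libraries, a bar at the group mean and a dotted line at the 0.1 FPKM limit for testing. STAT2 moved from between 3.77 and 3.94 FPKM to between 39.7 and 41.2 FPKM, while STAT4 and STAT5A lay near or under the limit.

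STAT2 (ENSG00000170581, chromosome 12, 56341597 to 56360155, minus strand, GRCh38) is the STAT that carries the transactivation function of ISGF3. It measured 3.77, 3.94 and 3.92 FPKM in the untreated libraries and 41.2, 39.7 and 40.8 FPKM in the IFNβ libraries. Every IFNβ library lay far above every untreated library, and the spread within a group was small beside the gap. The mean rose from 3.88 ± 0.0940 to 40.6 ± 0.781 FPKM (SD, n = 3 each), 10.5 times. The log2 fold change was 3.35 (SE 0.029, 95% interval 3.28 to 3.42, adjusted p = 8.5e-09), the 90th largest rise of all tested genes. The values rested on 802 to 1202 fragments per untreated library and 9228 to 11801 per IFNβ library.

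STAT3 (ENSG00000168610, chromosome 17, 42313324 to 42388568, minus strand) transmits signals from the interleukin-6 family of cytokines. Its untreated libraries read 11.6, 12.6 and 11.5 FPKM and its IFNβ libraries 19.0, 20.0 and 18.6 FPKM. The lowest IFNβ value lay above the highest untreated value. The mean was 11.9 ± 0.575 FPKM without and 19.2 ± 0.713 FPKM with IFNβ (SD, n = 3 each), a ratio of 1.61. The log2 fold change of 0.68 (SE 0.044, 95% interval 0.58 to 0.79, adjusted p = 9.1e-05) passed the test but not the fold limit for a DEG.

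STAT6 (ENSG00000166888, chromosome 12, 57095408 to 57132139, minus strand), the transducer of interleukin-4 and interleukin-13, was the most abundant STAT gene of the 6 in untreated cells. Its levels were 24.1, 23.8 and 23.5 FPKM without IFNβ and 33.6, 33.7 and 33.7 FPKM with it. The groups were separate, and the IFNβ libraries were nearly identical. The mean rose 1.41 times, from 23.8 ± 0.306 to 33.7 ± 0.0797 FPKM (SD, n = 3 each). The log2 fold change was 0.50 (SE 0.018, 95% interval 0.45 to 0.54, adjusted p = 7.5e-06). STAT6 shares 69 of its 7298 exon bases with NAB2 and 59 with LRP1 on the opposite strand, and the sources used here do not say whether strand was used in counting.

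STAT5B (ENSG00000173757, chromosome 17, 42199168 to 42276707, minus strand) acts downstream of growth hormone and of several interleukins. It was the 1 gene of the 6 that fell. The untreated libraries stood at 4.56, 4.91 and 4.85 FPKM and the IFNβ libraries at 4.23, 4.17 and 4.35 FPKM. All IFNβ values were below all untreated values, but by a margin similar to the spread of the untreated libraries. The mean went from 4.78 ± 0.186 to 4.25 ± 0.0877 FPKM (SD, n = 3 each), a log2 fold change of -0.16 (SE 0.043, 95% interval -0.27 to -0.06, adjusted p = 0.028). The call was lost without the second or the third untreated library, or without any 1 of the IFNβ libraries, with adjusted p between 0.052 and 0.087 in limma and log2 fold changes of -0.18 to -0.14.

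STAT5A (ENSG00000126561, chromosome 17, 42287547 to 42311943, plus strand) is the close copy of STAT5B best known from prolactin signalling. It measured 0.0960, 0.0845 and 0.0714 FPKM in untreated and 0.158, 0.125 and 0.0976 FPKM in IFNβ libraries. These levels rested on 14, 16 and 15 fragments and on 31, 20 and 18 fragments. The untreated mean of 0.0839 FPKM lay under the 0.1 FPKM limit, so STAT5A was tested only through its level in the IFNβ libraries. The groups lay side by side without overlap, with a gap of 0.00160 FPKM. The log2 fold change of 0.30 (SE 0.262, 95% interval -0.34 to 0.93, adjusted p = 0.45) did not pass the test, and its interval holds a fall as well as a rise of the size seen for STAT3. From the pooled fragments, the rate was 1.55 times as high with IFNβ (95% interval 1.05 to 2.31, exact, for counting error only). How fragments that match both STAT5A and STAT5B were assigned was not tested.

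STAT4 (ENSG00000138378, chromosome 2, 191029576 to 191151596, minus strand), known from interleukin-12 signalling in lymphocytes, was at the edge of detection. Its levels were 0.0190, 0.0220 and 0.0264 FPKM in untreated cells and 0.0846, 0.0435 and 0.120 FPKM after IFNβ. They rested on 2, 3 and 4 fragments and on 12, 5 and 16 fragments. All IFNβ libraries were higher, but they differed among themselves by more than the whole untreated range. The rate of the pooled fragments was 3.70 times as high with IFNβ (95% interval 1.73 to 8.79, exact, for counting error only). With no filter on low values, limma gave STAT4 a log2 fold change of 0.56 (SE 0.20, adjusted p = 0.13), where 17.6% of 35303 genes changed. The antisense gene STAT4-AS1 shares 109 exon bases with STAT4 and had 0, 1 and 0 fragments in untreated and 3, 0 and 0 in IFNβ libraries.

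The rank of the STAT genes by FPKM changed at the top. In untreated cells the order was STAT6, STAT3, STAT5B, STAT2, STAT5A and STAT4, and no neighbours in it overlapped. With IFNβ the order was STAT2, STAT6, STAT3, STAT5B, STAT5A and STAT4, in which STAT5A and STAT4 overlapped and the other neighbours did not. STAT2 stood at 1.20 times the mean level of STAT6 after IFNβ, with the gene lengths behind the deposited values. The gene lengths behind the FPKM were longer than the exon lengths of GENCODE release 29 for STAT2 (9310 against 6109 bases), STAT3 (11208 against 8812 bases), STAT5A (6385 against 5754 bases) and STAT5B (12110 against 6447 bases). These longer lengths were inferred from the FPKM. With the release 29 lengths, a check added after the data had been seen, STAT2 rose from 5.91 to 61.8 FPKM and stood at 1.83 times the level of STAT6 after IFNβ, and both orders stayed as they were.

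The 6 genes together summed to 43.9 to 45.4 FPKM in the untreated and 97.7 to 98.3 FPKM in the IFNβ libraries, 2.20 times as much on average. STAT2 alone made up 68.7% of that rise. Its share of the sum was 8.53%, 8.69% and 8.93% in untreated and 41.9%, 40.6% and 41.8% in IFNβ libraries. The share of STAT6 went from 53.6% ± 1.02 to 34.4% ± 0.188 and that of STAT3 from 26.8% ± 0.826 to 19.6% ± 0.746 (SD, n = 3 each), although the FPKM of both genes rose. STAT5B made up 10.7% ± 0.372 and then 4.34% ± 0.0931. These sums and shares use the gene lengths behind the deposited values and depend on them. They were not computed with the release 29 lengths. By those lengths STAT5B had 8.97 in place of 4.78 FPKM in untreated cells, and STAT2 61.8 in place of 40.6 FPKM after IFNβ.

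**Figure D2:**
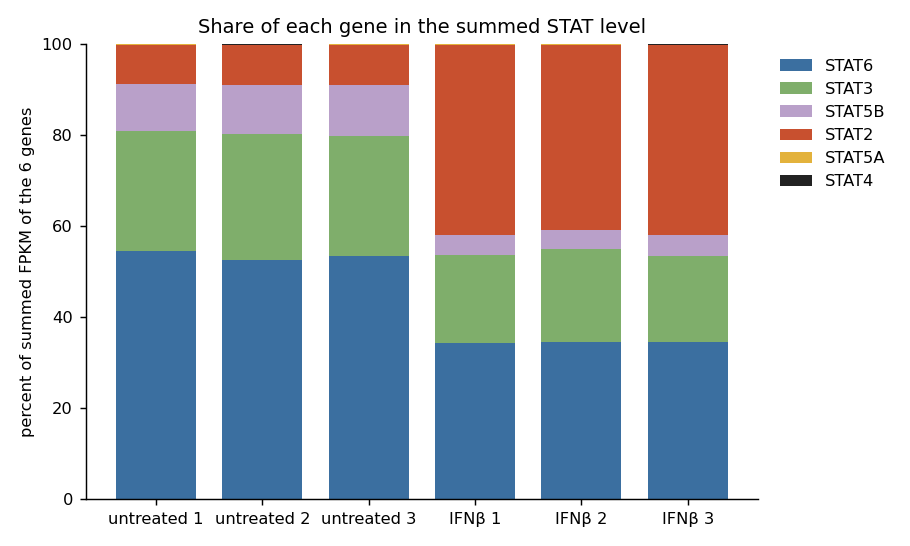
Stacked bars of the percent of the summed FPKM, as deposited, of the 6 STAT genes in each of the 3 untreated and 3 IFNβ libraries. STAT2 took 8.53% to 8.93% of the sum in untreated and 40.6% to 41.9% in IFNβ libraries, while the bands of STAT4 and STAT5A are almost too thin to see.

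Ratios of 2 genes within a library do not depend on the library's scaling. The level of STAT2 was 0.324, 0.313 and 0.340 of that of STAT3 in untreated libraries and 2.16, 1.99 and 2.20 times it in IFNβ libraries. Relative to STAT6, STAT2 went from 0.156, 0.165 and 0.167 to 1.23, 1.18 and 1.21. STAT2 therefore passed both genes in every IFNβ library. The ratio of STAT3 to STAT5B went from 2.55, 2.56 and 2.38 to 4.49, 4.78 and 4.27, and that of STAT5A to STAT5B from 0.0210, 0.0172 and 0.0147 to 0.0373, 0.0300 and 0.0224. None of these 4 ratios overlapped between groups, and neither did the levels of the genes in them. Each had an exact two-sided permutation p of 0.10, the smallest that 3 against 3 libraries can give, and 0.125 after adjustment over the 5 ratios computed. How often ratios of other gene pairs are separate was not computed. STAT5A rests on 14 to 31 fragments per library. With 0.1 added to both genes, the log2 difference of STAT5A to STAT5B was 0.46 in place of 0.75.

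IRF9, which gives ISGF3 its DNA contact, rose together with STAT2 but from a far lower level. It measured 0.115, 0.151 and 0.141 FPKM in untreated and 1.64, 1.65 and 1.31 FPKM in IFNβ libraries, on 17 to 30 and 244 to 327 fragments. The groups were well apart. The log2 fold change was 2.79 (SE 0.155, adjusted p = 4.9e-05), and over the alternatives it ranged from 1.15 with a pseudocount of 1 in place of 0.1 to 3.45 with limma-voom. STAT2 exceeded IRF9 32.8, 26.1 and 27.8 times in untreated and 25.1, 24.1 and 31.3 times in IFNβ libraries. These ratios overlapped, with a log2 difference of -0.11 (exact two-sided permutation p = 0.50, also 0.500 after adjustment over the 5 ratios). IRF9 shares 1838 of its 3794 exon bases (48.4%) with a readthrough gene, ENSG00000259529, which had 9 to 14 fragments in untreated and 21 to 29 in IFNβ libraries. How the authors counted fragments in shared exons was not tested, so the low FPKM of IRF9 is uncertain.

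The receptor and the kinases upstream of the STATs moved much less than STAT2. Of the 2 receptor chains and 4 Janus kinases, 5 were tested and 4 changed, 3 higher and 1 lower, with a median log2 fold change of 0.32, where 32.7% of all tested genes changed. Fitted among only the genes with a mean of at least 1 FPKM, 4 of them changed, beside 6451 of all 11996 genes. The kinase JAK1, which sits on the IFNAR2 chain, rose from 12.3 to 16.1 FPKM (log2 fold change 0.38, adjusted p = 0.00016). TYK2, the kinase of the IFNAR1 chain, rose from 10.2 to 11.4 FPKM (0.16, adjusted p = 0.0039). JAK2, which serves receptors such as those of growth hormone and interleukin-12, rose from 2.59 to 3.62 FPKM (0.47, adjusted p = 0.0028). The receptor chain IFNAR1 fell from 5.57 to 4.81 FPKM (-0.20, adjusted p = 0.016), a call that was lost without the first IFNβ library (adjusted p = 0.055). IFNAR2 had 0.193 and 0.265 FPKM (0.32, adjusted p = 0.25). With eBayes without trend and with limma-voom it passed as higher, so that all 5 tested genes of this list changed. Of its exon bases, 44.2% lie in a readthrough gene as well and 39.1% in the antisense gene IL10RB-DT. JAK3, a kinase of blood cells, had at most 6 fragments in any library and was not tested.

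**Figure D3:**
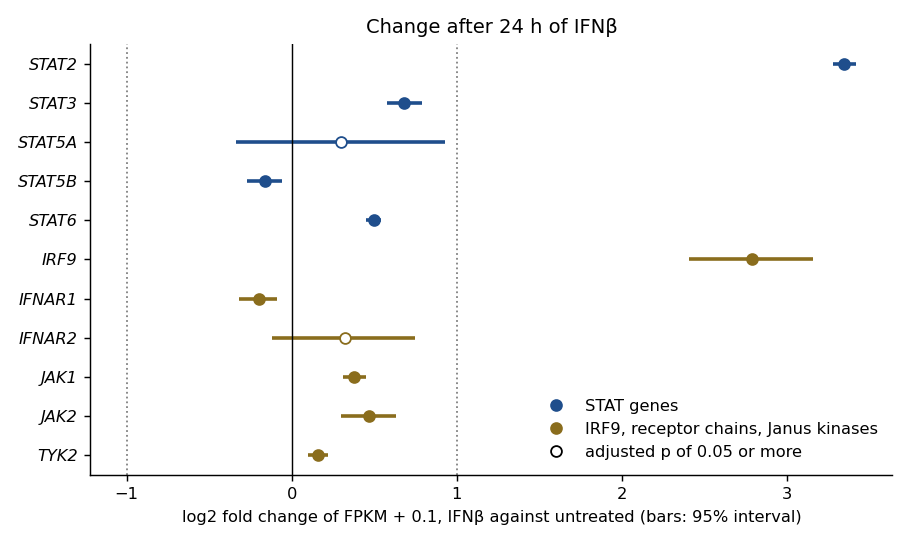
Log2 fold change of FPKM + 0.1 between IFNβ and untreated libraries with 95% intervals (limma, n = 3 each) for the 5 tested STAT genes, IRF9, the receptor chains and the tested Janus kinases. Filled points have an adjusted p under 0.05, and STAT2 at 3.35 and IRF9 at 2.79 lie beyond the dotted line at 1 while the other genes lie within it.

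Receptors of other cytokines that signal through these STATs moved in both directions. Of 22 in the list, 13 were tested and 7 changed (53.8%, against 32.7% of all tested genes), 3 higher and 4 lower, with a median log2 fold change over the tested genes of -0.09 against 0.000 over all tested genes. IL22RA1, the specific chain of the interleukin-22 receptor that feeds STAT3, was a DEG and went from 0.128 to 1.54 FPKM (log2 fold change 2.84, adjusted p = 5.8e-05). IL12RB1, a chain of the interleukin-12 receptor upstream of STAT4, was a DEG at a low level, 0.0414 and then 0.366 FPKM (1.71, adjusted p = 0.0035). Its untreated mean lay under the 0.1 FPKM limit, so it was tested only through its level in the IFNβ libraries. IL6R, the specific chain for interleukin-6, fell from 1.77 to 0.930 FPKM (log2 fold change -0.86, adjusted p = 0.0008). The shared chain of that family, IL6ST, fell from 33.2 to 28.0 FPKM (-0.25), and IL4R, upstream of STAT6, from 10.5 to 8.26 FPKM (-0.34). The remaining lower call was EPOR, named after its values were seen (-0.62, adjusted p = 0.022). That call was lost without the second or the third untreated library, or without the first or the third IFNβ library (adjusted p of 0.055 to 0.07). OSMR, the oncostatin M receptor, rose from 32.4 to 38.0 FPKM (0.23). In the fit of genes with a mean of at least 1 FPKM, 4 receptors of the list changed, 1 higher and 3 lower, beside 6451 of all 11996 genes. IL22RA1, IL12RB1 and EPOR had lower means and were not tested in it.

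Among 17 negative regulators of STAT signalling, 15 were tested and 8 changed, 3 higher and 5 lower, with a median of -0.03, where 32.7% of all tested genes changed and 17.5% were lower. The lower calls numbered 3 without any 1 of the untreated libraries or without the second IFNβ library, since PIAS2 and SOCS7, named after their values were seen, lost theirs (adjusted p of 0.062 to 0.099 in these fits). USP18, which blocks the type I interferon receptor, rose from 0.693 to 65.1 FPKM (log2 fold change 6.38, adjusted p = 5.2e-07). SOCS1, an inhibitor of Janus kinases, rose from 1.81 to 4.11 FPKM (1.15, adjusted p = 0.00049), and its relative SOCS5 from 7.52 to 9.47 FPKM (0.33). PTPN11, which encodes the phosphatase SHP2, fell from 33.6 to 21.7 FPKM (-0.63). USP18 and SOCS1 were the DEGs of this list. In the fit of genes with a mean of at least 1 FPKM, 9 regulators changed, 3 higher and 6 lower, beside 6451 of all 11996 genes.

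Of 12 partners, coactivators and transport factors, all were tested and 6 changed (against 32.7% of all tested genes), 3 higher and 3 lower, with a median of 0.03. Fitted among only the genes with a mean of at least 1 FPKM, 6 of this list changed, beside 6451 of all 11996 genes. Besides IRF9, the STAT-interacting protein gene NMI was a DEG, rising from 4.63 to 27.0 FPKM (log2 fold change 2.52). Of the importins that carry STATs into the nucleus, KPNA5 rose (0.47, adjusted p = 0.019) and KPNA3 (-0.26) and KPNB1 (-0.20) fell. The KPNA5 call was lost without the first or the third IFNβ library (adjusted p of 0.061 and 0.067).

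Genes known as targets of the STATs were counted by STAT, and differences between these lists were not tested. Of 13 ISGF3 targets, 12 rose, each of them as a DEG, and the median of the log2 fold changes was 6.54. Of all tested genes, 15.2% rose and 3.49% were higher as a DEG. IFIT1, which binds foreign RNA, went from 0.916 to 413 FPKM (8.67), and the ubiquitin-like modifier ISG15 from 10.5 to 1448 FPKM (7.09). The antiviral genes OAS2 (8.20), IFI6 (8.15) and MX1 (7.70) were close to IFIT1. The 13th gene, IRF7, named after its values were seen, had 0.740 and 0.749 FPKM (0.02, adjusted p = 0.97). USP18 and IRF9 stand in this list as well as in those above.

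Of 17 STAT3 targets, 8 (47.1%) changed, 4 higher and 4 lower, with a median of -0.03, against 32.7% of all tested genes changed (15.2% higher and 17.5% lower). In the fit of genes with a mean of at least 1 FPKM, 9 of the targets changed, 4 higher and 5 lower, beside 6451 of all 11996 genes. CEBPD, a transcription factor of the acute phase response, rose from 7.50 to 17.2 FPKM (log2 fold change 1.20), the adhesion molecule gene ICAM1 from 0.141 to 0.420 FPKM (1.14) and the AP-1 subunit gene JUNB from 14.0 to 20.0 FPKM (0.51). The ICAM1 call (adjusted p = 0.017) was lost without the first or the second IFNβ library (adjusted p of 0.056 and 0.061). BIRC5, which encodes survivin, fell from 51.8 to 36.6 FPKM (-0.50), and CEBPB from 56.9 to 47.1 FPKM (-0.27). SOCS3, a feedback inhibitor named here after its values were seen, had 10.6 and 10.1 FPKM (-0.07, adjusted p = 0.38).

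Many targets of STAT4 and STAT6 are best known from immune cells, and most of these lists had little or no signal in HT1080. Of 9 STAT4 targets 3 were tested, and the protease gene FURIN rose (log2 fold change 0.16, adjusted p = 0.0075). Of 11 STAT6 targets 3 were tested and all 3 changed, SOCS1 and TGM2 (0.49, a transglutaminase) higher and IL4R lower. Of 9 STAT5 targets 6 were tested, and the repressor gene BCL6 (0.38) and the survival gene BCL2L1 (0.16), which is also in the STAT3 list, rose. Of the tested genes, 33.3% of the STAT4, 33.3% of the STAT5 and 100% of the STAT6 targets changed. The share over all tested genes was 32.7%, so the STAT4 and STAT5 lists lay near it. Fitted among only the genes with a mean of at least 1 FPKM, 1 STAT4, 2 STAT5 and 3 STAT6 targets changed, beside 6451 of all 11996 genes. The medians of the tested genes were 0.05 for STAT4, 0.17 for STAT5 and 0.49 for STAT6 targets. The lists are small and several genes stand in more than 1 of them.

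**Figure D4:**
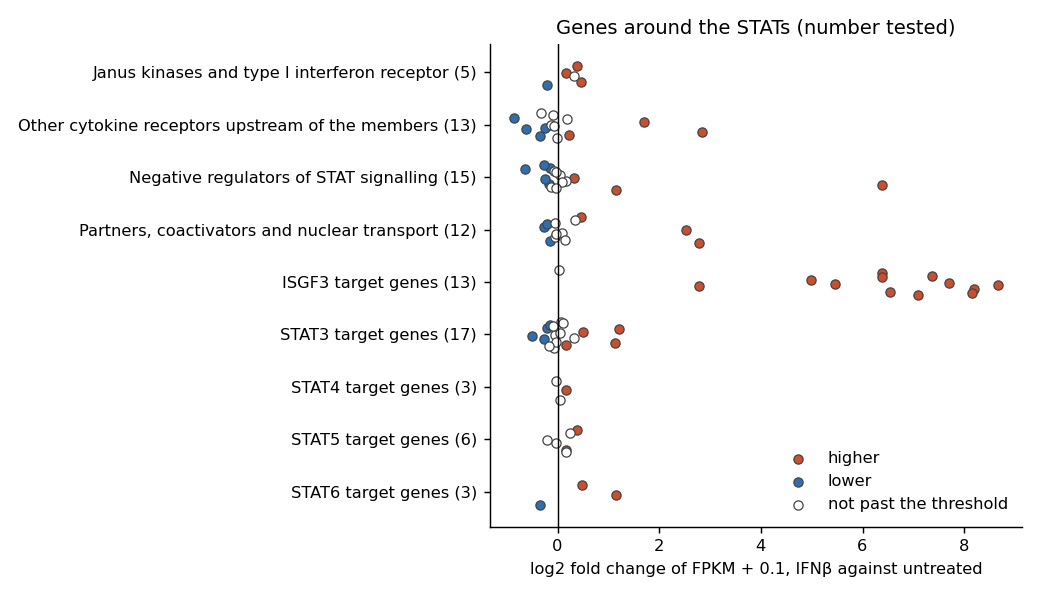
Log2 fold change of FPKM + 0.1 between IFNβ and untreated libraries for each tested gene of the 9 lists of upstream, partner and target genes, coloured by whether it rose, fell or did not pass an adjusted p of 0.05. The ISGF3 targets spread from 0.02 to 8.67, the STAT3 targets from -0.50 to 1.20.

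Among 11984 genes with a mean of at least 1 FPKM, those nearest to each STAT gene were taken by the root mean square difference of the log2 values over the 6 libraries, centred on the untreated mean. For STAT2 they were TLR3 (difference 0.057), a sensor of double-stranded RNA, the guanylate-binding protein gene GBP1 (0.058) and UBA7 (0.101), the activating enzyme of ISG15. TLR3 itself read 1.17, 1.19 and 1.10 FPKM in untreated and 13.3, 13.1 and 13.2 FPKM in IFNβ libraries. For STAT3 they were MVP (0.020), the major vault protein gene, CD82 (0.032) and CAMK2D (0.033). The nearest profile to STAT6 was that of TGM2 (0.013), at 109 and then 152 FPKM, followed by VPS11 (0.016) and EPDR1 (0.017). For STAT5B they were CBX1 (0.012), CMTM6 (0.016) and PSMB1 (0.017). The profiles nearest to STAT5A, with its few fragments, were DNAJC4 (0.040), HERC2P9 (0.048; identifier ENSG00000291082, 1 of 2 that carry this name) and ENSG00000286067 (0.049).

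STAT5B, STAT5A and STAT3 lie in a row on chromosome 17, with 10.8 kb between STAT5B and STAT5A and 1.38 kb between STAT5A and STAT3 (GENCODE release 29). Within this row STAT5B fell, STAT5A did not pass the test and STAT3 rose. STAT2 and STAT6 lie 735 kb apart on chromosome 12. Next to STAT2, at a distance of 1186 bases, IL23A, a subunit of interleukin-23, rose from 0.409, 0.315 and 0.258 to 1.60, 2.21 and 1.91 FPKM, on 10 or 11 and 58 to 65 fragments (log2 fold change 2.24, adjusted p = 0.00023). On the other side of STAT2, APOF had at most 1 fragment per library. An intron of STAT2 holds the small RNA pseudogene RNU7-40P on the same strand, named after its values were seen, with 0 fragments in every untreated library and 10, 8 and 20 fragments in the IFNβ libraries.

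Neighbours of STAT3, STAT5B and STAT6 outside the family differed by less than IL23A. CAVIN1, 13.9 kb from STAT3, fell by 0.21 on the log2 scale (adjusted p = 0.0023). GHDC, 4.63 kb from STAT5B, rose by 0.30 (adjusted p = 0.021), a call lost without the first or the third untreated library or without the second or the third IFNβ library (adjusted p of 0.062 to 0.071). NEMP1 beside STAT6 rose by 0.07 (adjusted p = 0.037), which no longer passed without any 1 library other than the third untreated (adjusted p of 0.086 to 0.11), and NXPH4 on its other side had a log2 fold change of -0.11 (adjusted p = 0.18).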

How the data were processed

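RNA was sequenced in 6 HT1080 libraries, grouped by their labels into 3 without and 3 with IFNβ (20 ng/mL, 24 h). The authors deposited FPKM per Ensembl gene and library. Their processing notes name fastp, HISAT2 and StringTie and the build GRCh38. The annotation release and the strandedness of counting are not given in the sources used here. Whole numbers of fragments could be recovered from the FPKM of all 35303 genes above 0 (100%, tolerance 1e-05 fragments). For 16322 of them the exon length of GENCODE release 29 gave these numbers. For the others the smallest length that gave whole numbers in every library was taken, so whole numbers are no check of that length. The recovered fragments made up 99.73% of the total each library was divided by. A single fragment on 1 kb is worth 0.0304 to 0.0438 FPKM. Pairs of libraries within a group differed by more than counting error (chi-square per degree of freedom 1.82 to 3.60), so none was counted as a duplicate.

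Groups were compared with limma 3.58.1 (R 4.3.3; lmFit, eBayes with trend) on log2(FPKM + 0.1) after leaving out genes whose mean was under 0.1 FPKM, two-sided, with Benjamini-Hochberg adjustment over all 20716 genes. The log2(FPKM + 0.1) scale understates the change of low genes. Gene-level adjusted p-values are from this fit unless a sentence names another (no filter, a library left out, a block). The study's DESeq2 needs counts and was not used. limma-voom on the recovered fragments was an alternative, besides other pseudocounts, filters, scalings, eBayes without trend, a replicate block and each library left out. The scripts were tested on simulated data. Python 3.11.15 (pandas 2.3.3, numpy 2.4.6, scipy 1.17.1) served the other steps.

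The members and lists were chosen with earlier results of these data known. Named genes are the STAT genes, IRF9, the receptor chains and Janus kinases, in each other list the DEGs and up to 4 changed genes of at least 1 FPKM with the largest change, the 3 nearest profiles and the adjacent protein-coding genes. Some genes that this rule covers are not reported here. Locations come from GENCODE release 29.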

Additional observations from a re-analysis of the deposited data

How the results depend on the processing

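Across the 16 alternatives to the limma fit, STAT2 (log2 fold change 3.09 to 3.38), STAT3 (0.64 to 0.72) and STAT6 (0.48 to 0.51) stayed higher with an adjusted p under 0.05 in each. STAT5B stayed lower (-0.20 to -0.14) and passed in 10 of 16. STAT5A passed in none of the 14 in which it could be tested. It fell under the filter without the first IFNβ library and at a minimum mean of 1 FPKM. With each library left out in turn, 3 to 4 STAT genes changed and 1 was a DEG. In these fits 5579 to 6044 genes of the whole table changed and 809 to 867 were DEGs, of 20628 to 20840 tested. The log2 difference of STAT2/IRF9 reversed from -0.11 to 0.57 when 0.1 was added to both genes, by which the low IRF9 level is raised most. At a minimum mean of 1 FPKM, 4 of the other cytokine receptors changed in place of 7, with fewer genes tested. In that fit 6451 of all 11996 genes changed. With limma-voom, 12 STAT3 targets changed in place of 8, and 7938 of all 20716 genes in place of 6778. Over the whole table, 875 DEGs became 304 with a pseudocount of 1 and 425 at a minimum mean of 1 FPKM.

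Same-numbered libraries of the 2 groups did not deviate together (correlations 0.05, -0.02 and 0.12), and the labels give no other link. With the replicate number as a block, 3 STAT genes changed in place of 4 (adjusted p of STAT5B 0.059), and 3 negative regulators were lower in place of 5. The block left 6069 in place of 6778 genes changed over the table. Of the 6 libraries, 3 correlated best with their own number.

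STAT4 and STAT5A rest on 2 to 31 fragments per library, which limits them to large differences. Intervals from fragments cover counting error only.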
